A study of Mus musculus with 6 samples.

Results

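The immunity-related GTPase (IRG) family was followed through RNA-seq of the parietal bone, a flat bone of the skull vault, of newborn C57BL/6 mice. The members were *Irgm1*, *Irgm2*, *Igtp*, *Iigp1*, *Tgtp1*, *Tgtp2* and *Gm12250*, 7 of the 44556 genes in the count tables, and they were chosen because their counts were raised in the comparison described here. Their differences between the genotypes are therefore given as a description, without a test. The comparison asks which genes depend on *Stat3* in bone-forming cells, and it has 3 libraries from OsxCre mice and 3 from OsxCre;Stat3fl/fl littermates. All 6 libraries thus carry OsxCre, a Cre recombinase driven by the osterix promoter in osteoblast precursors and their progeny. In the OsxCre;Stat3fl/fl mice both *Stat3* alleles have loxP sites around a stretch of exons, so the deletion is aimed at cells with a history of osterix expression and not at the other cells of the bone. In which cells *Stat3* was deleted was not measured here.

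IRG proteins are large GTPases that interferon-gamma, and to a lesser extent type I interferon, induces in many mouse cells. The GKS proteins, named after the glycine, lysine and serine of their nucleotide-binding motif, load onto the vacuoles of intracellular pathogens such as Toxoplasma and disrupt them. They comprise *Iigp1* (Irga6), *Tgtp1* and *Tgtp2* (Irgb6) and *Gm12250* (Irgb10). The GMS proteins, with methionine in place of the lysine, sit on the cell's own membranes and hold the GKS proteins inactive there, and comprise *Irgm1*, *Irgm2* and *Igtp* (Irgm3). In the mouse the genes lie in clusters and are expressed at low levels in the absence of interferon.

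Of the members, 6 lie on chromosome 11 (GRCm38.p6) in 2 clusters, with *Irgm1* at chr11:48865245-48871420, *Tgtp1* at chr11:48985329-48992246 and *Tgtp2* at chr11:49057196-49064212 in the first. *Gm12250* at chr11:58183843-58190198, *Igtp* at chr11:58199556-58207592 and *Irgm2* at chr11:58214977-58222783 form the second. *Iigp1* lies on another chromosome. *Stat3* is on chromosome 11 as well, and the members there lie between 42.7 and 52.0 Mb from it.

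Promoter windows from RefSeq (GRCm38.p6, 250 bases before to 50 bases after each annotated start) were found for 6 of the 7 members, all but *Iigp1*. They were searched on both strands for GAAANNGAAA, the core of the interferon-stimulated response element read by interferon regulatory factors, and for TTCNNNGAA, the palindrome read by STAT dimers, which is the same on both strands. The stretches that hold the matches are shown 5′ to 3′ on the strand of the gene, because they are the sequence feature that these genes share. The capitals mark the matches.
Irgm1: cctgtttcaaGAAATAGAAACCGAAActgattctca
Irgm2: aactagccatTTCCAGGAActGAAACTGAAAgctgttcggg
Igtp: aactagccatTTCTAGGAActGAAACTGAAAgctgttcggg
Tgtp1: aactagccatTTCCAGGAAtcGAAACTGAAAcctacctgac
Tgtp2: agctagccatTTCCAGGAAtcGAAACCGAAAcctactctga
Gm12250: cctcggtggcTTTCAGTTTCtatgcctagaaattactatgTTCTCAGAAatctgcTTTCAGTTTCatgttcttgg
The stretches are chr11:48871425-48871460 (minus strand) for *Irgm1*, chr11:58214892-58214932 (plus strand) for *Irgm2* and chr11:58199501-58199541 (plus strand) for *Igtp*. They are chr11:48992304-48992344 (minus strand) for *Tgtp1*, chr11:49064263-49064303 (minus strand) for *Tgtp2* and chr11:58183742-58183816 (plus strand) for *Gm12250*.

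GAAANNGAAA was present in 6 of the 6 windows, against 3.44% of the 32851 RefSeq promoter windows of the same length. TTCNNNGAA was present in 5 of the 6, all but that of *Irgm1*, against 8.30% of all windows. Both were present in 5 of the 6, against 0.454% of all windows. In *Irgm2*, *Igtp*, *Tgtp1* and *Tgtp2* the palindrome stood 2 bases before the interferon element in the same orientation. *Irgm1* had 2 overlapping matches to GAAANNGAAA and no palindrome in its window. *Gm12250* had a match on the opposite strand on either side of its palindrome, with a gap of 6 bases to the nearer one. The stretches of *Irgm2* and *Igtp* were identical at 40 of 41 bases, the exception being C14T (*Irgm2* first, counted from 1 at the 5′ end of the stretch), within the palindrome. Those of *Tgtp1* and *Tgtp2* were identical at 34 of 41 bases, compared position by position without gaps. Their mismatches were A2G, T27C (*Tgtp1* first) and a run from C37T to C41A, which an inserted base could also give. These matches are a description of the sequence, and binding was not measured.

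**Figure D1:**
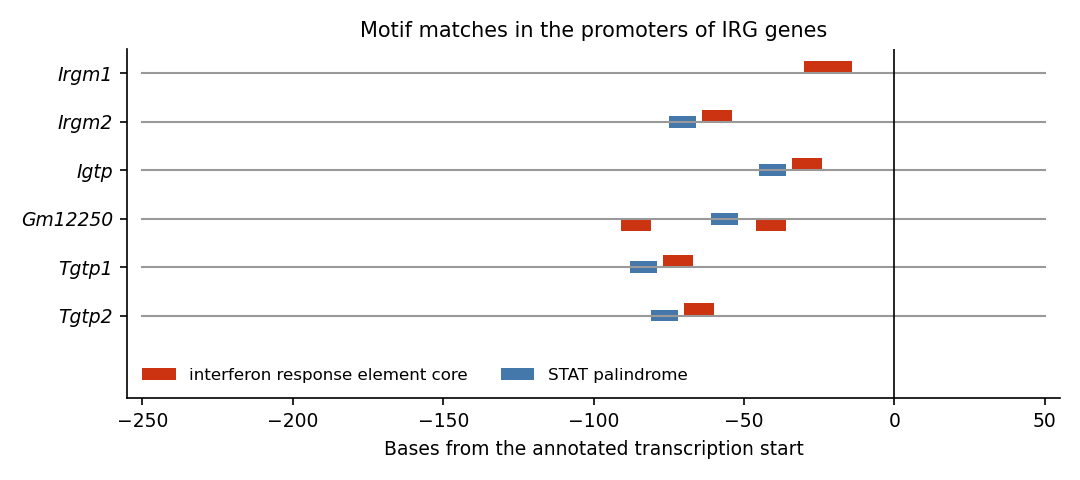
Position of the motif matches in the promoter windows of 6 IRG genes, in bases from the annotated transcription start (vertical line). Red boxes mark GAAANNGAAA (above the line on the strand of the gene, below it on the opposite strand) and blue boxes TTCNNNGAA; they lie within 91 bases before the start in each of the 6 genes.

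The libraries held between 8193651 and 12080044 counts on genes, so that 3 counts, taken as the smallest value a library can show, corresponded to between 0.252 and 0.368 CPM, the counts relative to the size of each library after TMM, edgeR's correction for library composition. Such floors cover counting error only. *Stat3* had between 134.5 and 149.9 CPM in the OsxCre libraries and between 152.9 and 155.3 CPM in the others. Its log2 fold change was 0.12 with a standard error of 0.07, and the quasi-likelihood test of edgeR gave an adjusted p = 0.442. Since the count over the whole gene was not lower, the second group is called by its label, and counts per exon were not analysed here. Of the 15600 genes with enough counts to be tested, 121 were upregulated and 75 downregulated at an adjusted p under 0.05. Upregulated genes made up 61.7% of these calls, and 49.6% (112 of the calls, with 114 downregulated) when the libraries were scaled by their totals alone. The p-values measure the spread between these 6 libraries, 3 mice per genotype by the study's methods.

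All 7 members had higher CPM in every library labelled OsxCre;Stat3fl/fl than in every OsxCre library, a pattern that 10.8% of the tested genes showed. The count of a member per library ranged from 1 to 227 in OsxCre and from 37 to 483 in the labelled libraries, and all 7 entered the test. *Tgtp1*, *Tgtp2* and *Gm12250* did so only through their counts in the labelled libraries. At an adjusted p under 0.05, 6 of the 7 were called upregulated, the exception being *Irgm2*, against 0.776% of all genes tested. Since the members were chosen by this contrast, nothing is read from these counts. Their median log2 fold change was 2.60, where the median over all tested genes was -0.0037, and the members ranged from 0.68 to 3.80. Of the tested genes, 3.56% had a log2 fold change at least as large as that of *Irgm2*, the smallest of the members. Leaving out library 3 labelled OsxCre;Stat3fl/fl lowered the number of members called from 6 to 3, and leaving out OsxCre library 1 or labelled library 1 lowered it to 4.

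**Figure D2:**
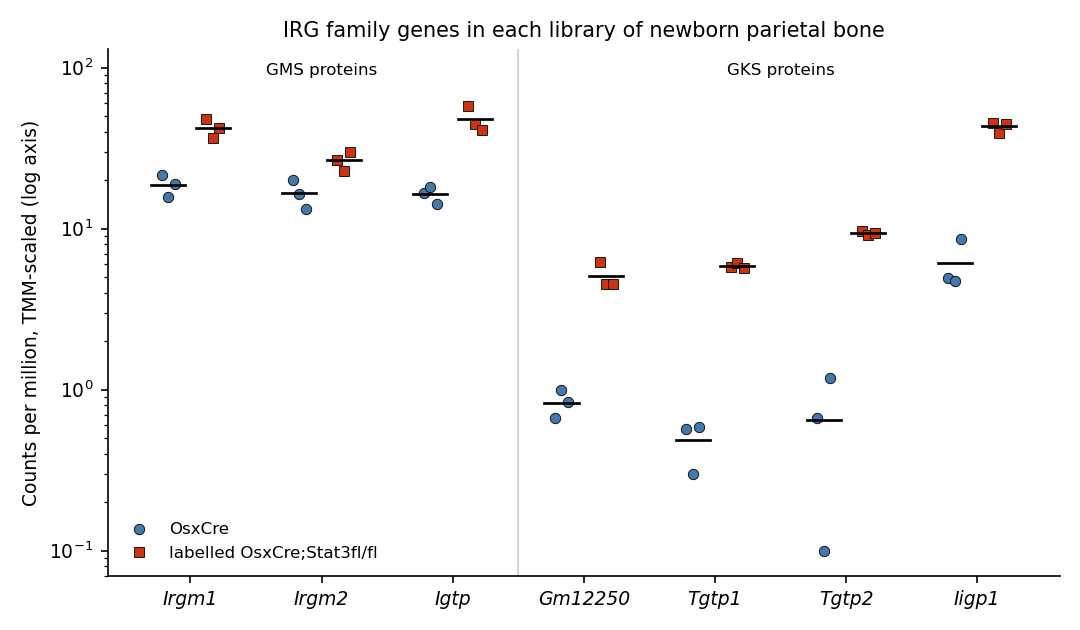
CPM (scaled by TMM, log axis) of the 7 IRG genes in each library, with GMS genes on the left and GKS genes on the right; circles are OsxCre libraries, squares libraries labelled OsxCre;Stat3fl/fl, and bars the mean of 3. For each gene the 3 squares lie above the 3 circles, with the narrowest distance for Irgm2 and the widest for Tgtp1.

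The GMS genes had the smaller differences. *Irgm1*, whose protein sits on the Golgi, lysosomes and mitochondria and is needed for resistance to mycobacteria, had 21.5, 15.8 and 19.1 CPM in OsxCre libraries 1, 2 and 3. In labelled libraries 1, 2 and 3 it had 47.8, 36.5 and 42.5 CPM. The lowest labelled library was 1.70 times the highest OsxCre library, and the means were 18.8 ± 2.88 and 42.3 ± 5.64 CPM (SD, n = 3 each), 2.25-fold apart (log2 fold change 1.17, standard error 0.15).

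*Igtp*, whose protein sits on the endoplasmic reticulum and lipid droplets, had 16.7, 18.0 and 14.2 CPM in the OsxCre libraries and 58.0, 44.5 and 40.7 CPM in the labelled ones. Labelled library 1 stood highest, above the others by more than the whole range of the OsxCre libraries. The means were 16.3 ± 1.97 and 47.7 ± 9.10 CPM (SD, n = 3 each), 2.92-fold apart (log2 fold change 1.55, standard error 0.16).

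*Irgm2*, whose protein sits on the Golgi and restrains caspase-11 inflammasome responses, had 20.1, 16.4 and 13.3 CPM in the OsxCre libraries and 26.8, 22.8 and 29.9 CPM in the labelled ones. The groups came close, since labelled library 2 was 1.14 times OsxCre library 1. The means were 16.6 ± 3.41 and 26.5 ± 3.58 CPM (SD, n = 3 each), 1.60-fold apart (log2 fold change 0.68, standard error 0.17).

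The GKS genes started lower and differed more. *Iigp1*, on chromosome 18 from 60373616 to 60392634 (GRCm38.p6), encodes a protein that coats the Toxoplasma vacuole, and had 4.95, 4.76 and 8.64 CPM in the OsxCre libraries and 45.4, 39.2 and 44.9 CPM in the labelled ones. OsxCre library 3 was the highest of its group, yet the lowest labelled library was 4.54 times it. The means were 6.12 ± 2.19 and 43.2 ± 3.43 CPM (SD, n = 3 each), 7.06-fold apart (standard error of the log2 fold change, 0.22).

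*Tgtp1* and *Tgtp2* encode Irgb6, which binds phospholipids of the vacuole membrane. *Tgtp1* had 6, 3 and 7 counts in the OsxCre libraries and 48, 50 and 49 in the labelled ones, or 0.485 ± 0.163 and 5.87 ± 0.221 CPM (SD, n = 3 each). *Tgtp2* had 7, 1 and 14 counts in the OsxCre libraries and 81, 75 and 80 in the labelled ones, or 0.647 ± 0.538 and 9.43 ± 0.274 CPM (SD, n = 3 each). Both were at or under the floor of 3 counts in OsxCre library 2 and nearly level across the labelled libraries. The folds of the means were 12.1 for *Tgtp1* (log2 fold change 3.55, standard error 0.30) and 14.6 for *Tgtp2* (log2 fold change 3.80, standard error 0.49), and they rest on 16 and 22 counts in the 3 OsxCre libraries together. The coding sequences of these genes were 99.7% identical over 1248 bases (GENCODE vM1), and 89.4% of the 50-base windows of *Tgtp1* also occurred in *Tgtp2*. How the counting divided such reads between them is not known here, so the values of the single genes are uncertain, whereas their counts added together gave a log2 fold change of 3.72. Without OsxCre library 3, which holds 14 of the 22 counts of *Tgtp2*, its value was 4.56.

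*Gm12250* encodes Irgb10, which acts on bacterial membranes and on Chlamydia inclusions. It had 7, 10 and 10 counts in the OsxCre libraries and 52, 37 and 39 in the labelled ones. Labelled library 1 was again the highest. The means were 0.832 ± 0.163 and 5.11 ± 0.980 CPM (SD, n = 3 each), 6.14-fold apart (log2 fold change 2.60, standard error 0.28).

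Summed over the 7 genes, the OsxCre libraries had 65.2, 56.3 and 57.7 CPM and the labelled libraries 199.7, 162.9 and 177.6 CPM. The sum was thus 59.7 ± 4.76 and 180.1 ± 18.5 CPM (SD, n = 3 each), 3.01-fold apart. Labelled library 1 held the highest value of its group for 5 of the 7 members and labelled library 2 the lowest for 5. In OsxCre, library 3 was the highest for *Iigp1*, *Tgtp1* and *Tgtp2*, but the lowest for *Irgm2* and *Igtp*. In bulk tissue such as this, fewer or more cells of a type and less or more RNA per cell cannot be told apart.

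Levels between genes were compared as CPM per kilobase of a representative transcript (GENCODE vM1). In OsxCre the order was *Irgm1* with 8.31, *Igtp* with 8.07, *Irgm2* with 4.97 and *Iigp1* with 1.96 CPM per kilobase, followed by *Gm12250* with 0.308, *Tgtp2* with 0.230 and *Tgtp1* with 0.172. *Irgm1* and *Igtp* overlapped in their library values, as did *Gm12250* with *Tgtp2* and *Tgtp2* with *Tgtp1*, while the other neighbours in the order were apart in 3 of 3 libraries. In the labelled libraries the order was *Igtp* with 23.6, *Irgm1* with 18.7, *Iigp1* with 13.8 and *Irgm2* with 7.96 CPM per kilobase, then *Tgtp2* with 3.35, *Tgtp1* with 2.08 and *Gm12250* with 1.89. Here *Igtp* overlapped with *Irgm1* and *Tgtp1* with *Gm12250*, and *Iigp1* stood above *Irgm2* in 3 of 3 libraries, the reverse of their order in OsxCre. The order depends on the length used. Over the union of its exons, 5810 bases against 2259 in the transcript, *Irgm1* ranked 3 in OsxCre and 4 in the labelled libraries. By exon unions, 3205 bases against 2823 for *Tgtp1*, *Gm12250* ranked 6 and *Tgtp1* 7 in the labelled libraries. The places of *Tgtp1* and *Tgtp2* also depend on how their shared reads were divided.

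The balance of the branches differed between the libraries on the same per-length scale. GMS genes made up 91.3%, 91.1% and 84.0% of the family in OsxCre libraries 1, 2 and 3, and 72.1%, 69.6% and 69.1% in labelled libraries 1, 2 and 3. The share was lower in every labelled library than in every OsxCre library. It derives from the same counts by which the members were chosen and was not tested. Like the ranks, it depends on the length used for *Irgm1*. *Iigp1* alone made up 6.07%, 6.67% and 12.0% in OsxCre and 18.1%, 19.4% and 20.8% in the labelled libraries. By coding sequence, the GMS genes were 63.1% to 67.2% identical to one another, *Iigp1* was 57.6% identical to *Tgtp1*, and pairs across the branches, as far as compared, were 49.8% to 51.3% identical. Apart from the Tgtp pair, windows of 50 bases were shared only between *Irgm2* and *Igtp*, at 3.84% of those of *Irgm2* and 6.39% of those of *Igtp*. *Gm12250* was not in that comparison.

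Genes around the IRG family were read from 9 lists by role. The lists were written with earlier results of these data known, so their counts describe the pathway and are not independent evidence of its direction. Of the 124 genes on them, 89 entered the test. At an adjusted p under 0.05, 16 of the 89 rose in the libraries labelled OsxCre;Stat3fl/fl, or 18%, against 0.776% of all genes tested. None fell, against 0.481% of all genes. DESeq2's Wald test called 23 higher and 0 lower, where it called 304 and 235 of all 15600 genes. By an unadjusted p under 0.05 in edgeR, 47 were higher and 1 was lower. The share of all tested genes under an unadjusted p of 0.05 is not given here, so counts at that threshold have no background. The median log2 fold change of the 89 was 0.45, with 78 of them above 0. Leaving out OsxCre library 1, 2 or 3 left 1, 4 and 8 genes called, and leaving out labelled library 1, 2 or 3 left 1, 10 and 0, while without the filter on low counts 24 were called. Of the 16, *Gm4841*, *Gbp2*, *Batf2*, *Nlrc5* and *Cxcl9* passed that filter only through their counts in the labelled libraries. Such genes could hardly be called lower.

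**Figure D3:**
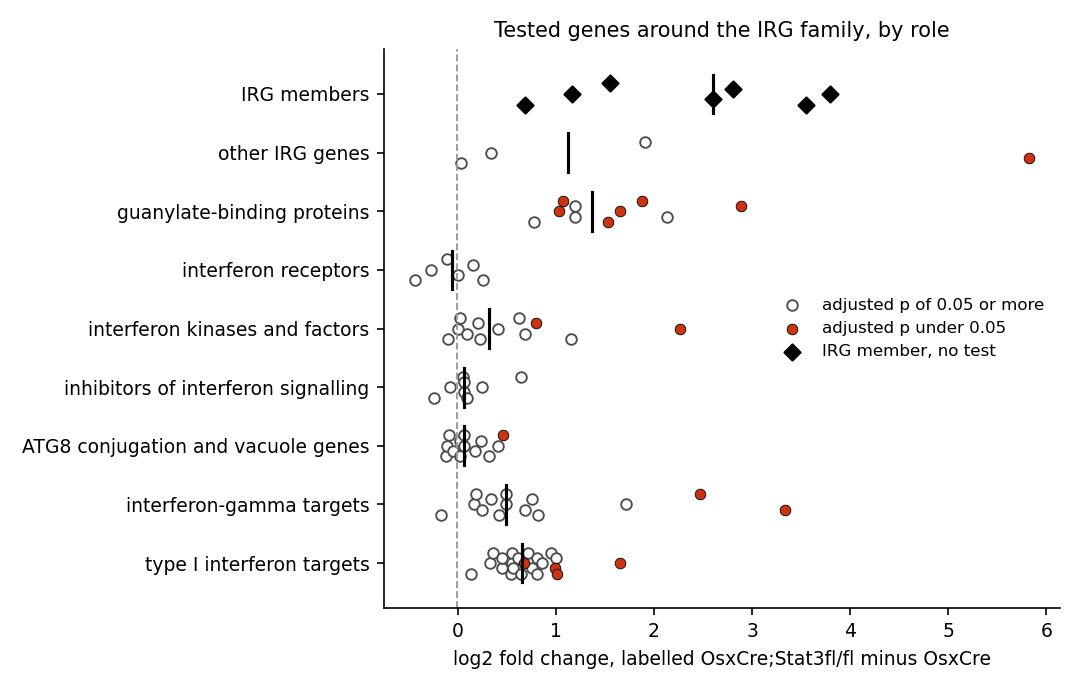
Log2 fold change (libraries labelled OsxCre;Stat3fl/fl against OsxCre) of each tested gene, in rows by role, with a vertical bar at the median of each row; filled circles passed an adjusted p under 0.05 and diamonds are the 7 IRG members, shown without a test. The medians were 1.37 for guanylate-binding proteins and -0.06 for interferon receptors, and the point farthest to the right, Gm4841, rests on 1 count in OsxCre.

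The ligands were at the limit of the depth. Of 21 interferon genes, 16 had 0 counts in all 6 libraries, the others had 6 counts together, and no gene had more than 1 count in a library. *Ifng*, which encodes interferon-gamma and was named after its values were seen, had 1 count, in labelled library 2. The receptors were well covered, with 6 of 6 tested and a median log2 fold change of -0.06. By edgeR's quasi-likelihood test 0 of them passed, as by DESeq2, and by an unadjusted p under 0.05 1 was higher and 1 lower. *Ifnar1*, a chain of the type I receptor, had 112 ± 4.27 and 104 ± 3.67 CPM (SD, n = 3 each, adjusted p = 0.464). *Ifngr1*, the ligand-binding chain of the interferon-gamma receptor, had 78.0 ± 6.48 and 93.1 ± 8.17 CPM (SD, n = 3 each, adjusted p = 0.241). *Ifngr2*, its other chain, was named after its values were seen and had 78.7 ± 5.44 and 64.9 ± 2.97 CPM (SD, n = 3 each, adjusted p = 0.149). Without overlap, *Ifngr1* was higher and *Ifngr2* and *Ifnar1* were lower, patterns that 10.8% and 12.2% of all tested genes showed.

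Among 12 kinases and transcription factors of interferon signalling, 2 rose. *Irf7*, which drives type I interferon genes and is itself interferon-induced, had 13.4, 15.5 and 15.4 CPM in OsxCre and 25.8, 23.2 and 28.0 CPM in the labelled libraries (log2 fold change 0.80, standard error 0.12, adjusted p = 0.0279). *Batf2*, an interferon-induced bZIP factor, had 9, 5 and 5 counts in OsxCre and 32, 19 and 21 in the labelled libraries (log2 fold change 2.27, standard error 0.39, adjusted p = 0.0423). Both were higher in 3 of 3 labelled libraries than in any OsxCre library. The log2 fold change was 0.10 for *Jak1*, a kinase of both receptors (adjusted p = 0.647), and 0.03 for *Irf3*, a factor activated by nucleic acid sensing (adjusted p = 0.925). *Irf1*, a factor through which interferon-gamma acts on its target genes, was named after its values were seen. It had 30.3 ± 1.62 and 34.8 ± 1.39 CPM (SD, n = 3 each, adjusted p = 0.299), without overlap. Of the 12, 1 was called without labelled library 2 and 0 without any other single library.

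Of 8 inhibitors of interferon signalling, 0 passed the edgeR test and 0 passed DESeq2's, and 1 was higher at an unadjusted p under 0.05. Their median log2 fold change was 0.06. For those with the highest CPM, the phosphatase genes *Ptpn11* and *Ptpn1*, it was 0.06 (adjusted p = 0.733) and -0.08 (adjusted p = 0.717).

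Of 13 genes for the ATG8 conjugation that guides IRG proteins to vacuoles and for vacuole handling, 1 rose and their median log2 fold change was 0.06. *Sqstm1*, which encodes the autophagy receptor p62, had 257, 243 and 234 CPM in OsxCre and 315, 340 and 352 CPM in the labelled libraries (log2 fold change 0.46, standard error 0.08, adjusted p = 0.0453). *Gabarap*, an ATG8 gene, had 379 ± 9.77 and 348 ± 35.9 CPM (SD, n = 3 each, adjusted p = 0.569). The call of *Sqstm1* was lost with library totals and in 6 of the 6 fits that left out a library, and DESeq2 called 3 of the 13 genes.

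Guanylate-binding proteins are interferon-induced GTPases that gather on the same vacuoles as IRG proteins. Of 10 tested, 6 rose and the other 4 had log2 fold changes between 0.78 and 2.14. In 10 of 10 every labelled library was above every OsxCre library, a pattern that 10.8% of all tested genes showed. *Gbp2* and *Gbp10*, the latter named after its values were seen, passed the filter on low counts only through the labelled libraries. *Gbp6* had 9.42, 7.14 and 8.48 CPM in OsxCre and 28.7, 21.8 and 28.5 CPM in the labelled libraries (log2 fold change 1.66, standard error 0.16, adjusted p = 0.00785). *Gbp3* had 11.0 ± 2.53 and 32.1 ± 4.12 CPM (SD, n = 3 each, log2 fold change 1.54, adjusted p = 0.0142). In both, labelled library 2 was the lowest of its group, as it was for 5 of the IRG members. *Gbp2* had the fewest counts of the 6 genes, with 7, 1 and 5 counts in OsxCre and 23, 21 and 32 in the labelled libraries (log2 fold change 2.89, standard error 0.48, adjusted p = 0.0402). *Gbp4*, *Gbp7* and *Gbp9* rose with log2 fold changes of 1.87, 1.03 and 1.07. Close copies among these genes could have shared reads. Without one library at a time, between 0 and 4 of the 10 were called, with 0 when labelled library 3 was left out and 1 without OsxCre library 1 or labelled library 1, while an unadjusted p under 0.05 was reached by 9 or 10 of the 10 in each of these fits.

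Of 14 tested interferon-gamma targets, 2 rose. *Cxcl9*, a chemokine for T cells, had 8, 10 and 32 counts in OsxCre and 200, 79 and 106 in the labelled libraries (log2 fold change 3.34, standard error 0.52, adjusted p = 0.0301). *Nlrc5*, the activator of MHC class I genes, had 6, 4 and 12 counts in OsxCre and 37, 34 and 23 in the labelled libraries (log2 fold change 2.47, standard error 0.39, adjusted p = 0.0327). As for *Iigp1*, OsxCre library 3 was the highest of its group for both. *B2m*, the light chain of MHC class I, had 215 ± 15.8 and 289 ± 7.97 CPM (SD, n = 3 each, adjusted p = 0.0573), and *Tap1*, the peptide transporter, 19.3 ± 3.23 and 34.0 ± 5.76 CPM (SD, n = 3 each, adjusted p = 0.0671). Of the 14, 0 were called without OsxCre library 1 or 2 or labelled library 1 or 3, 2 without OsxCre library 3 and 1 without labelled library 2, and DESeq2 called 5.

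Of 22 tested type I interferon targets, 4 rose and 22 of 22 had a log2 fold change above 0, with a median of 0.66. *Zbp1*, a sensor of Z-form nucleic acid, had 3.33, 3.37 and 2.10 CPM in OsxCre and 11.6, 7.72 and 8.30 CPM in the labelled libraries (log2 fold change 1.65, standard error 0.27, adjusted p = 0.0362). *Oasl2*, an oligoadenylate synthetase-like gene, had 15.3 ± 0.328 and 30.5 ± 4.46 CPM (SD, n = 3 each, adjusted p = 0.0180). *Rtp4* and *Bst2*, the latter encoding the viral tether tetherin, rose with log2 fold changes of 1.01 and 0.67 (adjusted p = 0.0423 and 0.0445). Of the 22, 0 were called without OsxCre library 1 or 2 or labelled library 1 or 3, 2 without OsxCre library 3 and 3 without labelled library 2, and DESeq2 called 8.

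The other IRG genes had few counts. Of 13 on the list, 11 were in the tables and 4 were tested, of which *Gm4841* rose (adjusted p = 0.0180). It had 1, 0 and 0 counts in OsxCre and 28, 12 and 22 in the labelled libraries, a ratio of 80.5 relative to the library sizes, with a 95% exact counting interval from 13.9 to 3231. Its adjusted p was under 0.05 in 1 of the 6 fits that left out a library, that without labelled library 2. *Gm12185*, between *Irgm1* and *Tgtp1*, had 4, 1 and 9 counts in OsxCre and 16, 11 and 14 in the labelled libraries (adjusted p = 0.140), and *Gm5431* beside it had 10, 10 and 15 against 10, 12 and 12 (adjusted p = 0.668). *Irgq*, which encodes a distant member of the family, had 38.2, 52.4 and 40.5 CPM in OsxCre and 50.2, 38.9 and 44.9 CPM in the labelled libraries, with overlap (adjusted p = 0.944). *Ifi47* (Irgd), an IRG gene 12.4 kb from *Tgtp2* that was on none of the lists, had 1, 2 and 4 counts in OsxCre and 12, 6 and 9 in the labelled libraries and was too low to be tested. *Gm12185*, *Gm5431* and *Ifi47* were named after their values were seen.

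Other genes near the members were read from the same fit. Within 500 kb of a member, 29 genes not listed as IRG genes were tested, and 0 were called by edgeR's quasi-likelihood test. Of all tested genes 0.776% were called higher and 0.481% lower, so 0 of 29 is near the general share. By an unadjusted p under 0.05, 3 were higher and 3 lower. DESeq2's Wald test called 2 lower (*Zfp692* and *Myoz3*), where it called 235 of all 15600 genes lower. On chromosome 11 the 18 tested genes had log2 fold changes between -0.61 and 0.38, with a median of -0.03, below the smallest value of the members. For *Mrpl22*, 4.26 kb from *Gm12250*, it was 0.23 (adjusted p = 0.441). Near *Iigp1* the 11 tested genes ranged from -0.97 to 3.80. The highest of these was the pseudogene *Gm5970*, 151 kb away, with 0, 0 and 5 counts in OsxCre and 22, 18 and 17 in the labelled libraries (adjusted p = 0.0645). It passed when OsxCre library 3, which holds its 5 counts, was left out (adjusted p = 0.0332, with 0 counts then in OsxCre), with limma-voom (adjusted p = 0.0395) and without the filter on low counts (adjusted p = 0.00919). Without that filter *Zfp692* and *Myoz3* passed as lower too. The pseudogene *BC023105*, 45.8 kb from *Iigp1*, had a log2 fold change of 2.09 with a standard error of 0.68 (adjusted p = 0.189). Whether these pseudogenes belong to the IRG family was not examined. The genes of this paragraph were named after their values were seen.

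**Figure D4:**
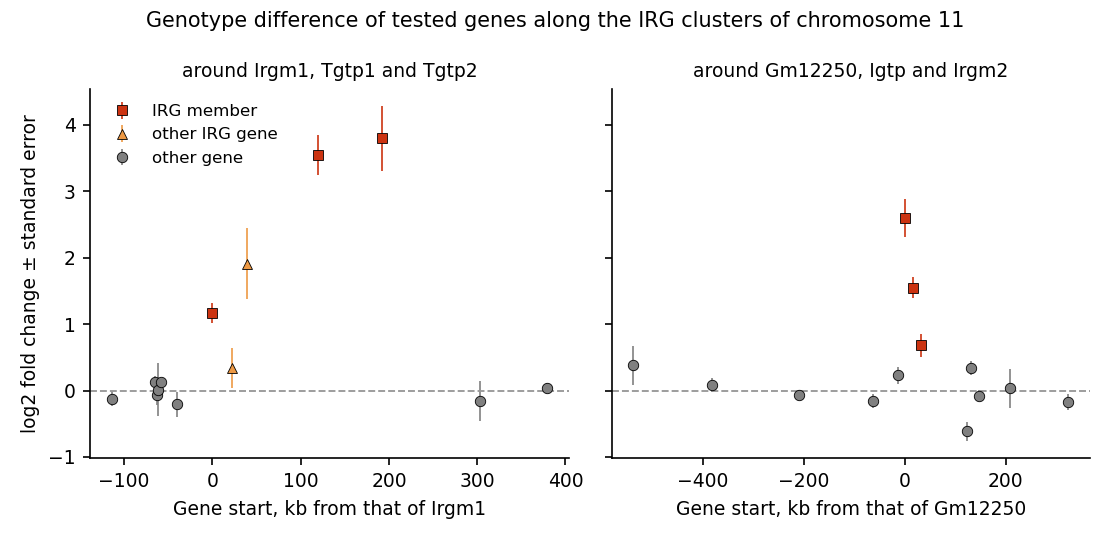
Log2 fold change (libraries labelled OsxCre;Stat3fl/fl against OsxCre) with its standard error for each tested gene along the first and the second IRG cluster of chromosome 11, by distance of the gene's start from that of Irgm1 or Gm12250 in kb. The IRG members (squares) lie between 0.68 and 3.80 and the 2 other IRG genes (triangles) at 0.34 and 1.91. Genes not listed as IRG genes (grey circles) lie between -0.61 and 0.38.

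The genes whose profile over the 6 libraries was most like the mean profile of the members were *Gm5182*, *Gabrr2*, *Clca1*, *Mt2*, *Gbp4* and *Gbp6*. Likeness was the root mean square difference of log2(CPM + 0.5), centred on each gene's mean, and was 0.0798 for *Gm5182*, between 0.195 and 0.207 for *Gabrr2*, *Clca1* and *Mt2*, and 0.230 and 0.234 for *Gbp4* and *Gbp6*, where the median over all tested genes was 1.04. *Gm5182* had 42, 33 and 46 counts in OsxCre and 143, 140 and 144 in the labelled libraries. Among the members the distance to their own mean profile was smallest for *Gm12250*, at 0.201, and largest for *Irgm2*, at 0.711. The other 6 members thus lay farther from their mean profile than each of the genes named above, at 0.333 or more. The members were chosen for their genotype difference, so likeness to their mean profile largely reflects a log2 fold change of similar size. Shared regulation was not tested.

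Markers of the cell types that the bone could hold were read beside the family. Summed over 10 macrophage markers, the OsxCre libraries had 457 to 486 CPM and the labelled libraries 561 to 593 CPM without overlap, and *C1qb*, a complement gene of macrophages, rose from 103 ± 5.01 to 146 ± 6.66 CPM (SD, n = 3 each, adjusted p = 0.0253). This was the one of the 10 that passed the test. The sum rests mostly on *C1qa*, *C1qb* and *C1qc*, which had the highest CPM. In 6 of the 10, every labelled library was above every OsxCre library, as in 10.8% of all tested genes. *Adgre1*, *Csf1r*, *C1qa* and *Mrc1* overlapped, and the mean of *Adgre1* was lower in the labelled libraries (log2 fold change -0.29). Apart from *C1qb*, these macrophage genes were named after their values were seen. T and NK cell markers were near 0, with 4.28 to 6.13 CPM over 11 genes in OsxCre and 4.56 to 6.62 CPM in the labelled libraries, 1 of the 11 tested and *Cd8a* at 0 counts. Dendritic cell markers had 3.67 to 5.79 and 2.57 to 4.79 CPM over 5 genes, with *Xcr1* at 0 counts, and B lineage markers 11.0 to 17.6 and 11.9 to 15.6 CPM over 6 genes. Neutrophil markers had 276 to 477 CPM in OsxCre and 118 to 195 CPM in the labelled libraries over 7 genes, without overlap, and *S100a9* fell (adjusted p = 0.0423). In 4 of the 6 tested, every labelled library was below every OsxCre library, as in 12.2% of all tested genes, whereas *Ngp* and *Mpo* overlapped. The means of *Mpo* and of the untested *Elane* were higher in the labelled libraries. *Ngp*, *Mpo* and *Elane* were named after their values were seen. Endothelial markers overlapped, with 463 to 654 and 565 to 668 CPM over 5 genes.

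Skeletal muscle markers were abundant in this tissue, with 26379 to 28527 CPM in OsxCre and 31146 to 46377 CPM in the labelled libraries over 7 genes, of which *Myh3* rose and *Myh4* fell. Osteoblast markers, read as a check of the tissue, were lower in sum than the muscle markers in every library. They had 14218 to 19109 and 13181 to 16763 CPM over 7 genes, and 1 of them, *Ibsp*, fell. In 2 of the 7, *Ibsp* and *Alpl*, every labelled library was below every OsxCre library, as in 12.2% of all tested genes. The others overlapped, and the means of *Bglap* and *Spp1* were higher in the labelled libraries. *Alpl*, *Bglap* and *Spp1* were named after their values were seen. The part of these cell types in the IRG values was not tested.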

How the data were processed

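RNA-seq of newborn parietal bone was analysed, with 3 libraries from OsxCre and 3 from OsxCre;Stat3fl/fl mice, grouped by their labels. The authors deposited whole-number read counts for 44556 gene symbols, without normalization. The study's methods name TopHat, mm9 and FPKM, while the submitters' processing notes name HISAT2 and GRCm38. The counting program and annotation are not given in the sources used here. The labels say polyA RNA and the paper total RNA.

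In edgeR 4.0.16 (R 4.3.3), after filterByExpr (minimum count 10, minimum total count 15), 15600 genes were scaled by TMM. The genotypes were compared with the two-sided quasi-likelihood test without a fold line, and p-values were adjusted over all tested genes after Benjamini and Hochberg. All adjusted p-values in the text come from this fit unless another tool is named. Standard errors of log2 fold changes were obtained from their F statistics (size over root F). DESeq2 1.42.0, limma 3.58.1 (voom), other scalings, no filter, the replicate number as a block and leaving out each library were alternatives. The fits were tested on simulated counts. Pairs of libraries of one genotype differed by 7.51 to 15.6 chi-square per degree of freedom over genes, so none was a duplicate.

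The members and gene lists were chosen with earlier results of these data known. The genes named are the 7 members, *Stat3*, each called gene of a list, the 2 genes with the highest mean CPM of lists with fewer than 3 calls and the 6 nearest profiles, and others are said to have been named after their values were seen. Of the list genes, 3 were matched through synonyms and 2 were not in the tables. A gene of the lists is counted in the totals and not reported here singly. Gene positions and promoters came from RefSeq (GRCm38.p6), and transcript lengths and coding sequences from GENCODE vM1 (NCBIM37), in which *Gm12250* is a pseudogene whose longest transcript was used. Counting intervals are exact Clopper-Pearson. Python 3.11.15 with pandas 2.3.3, Biopython 1.88 and matplotlib 3.10.9 was used for sequences, tables and plots.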

Additional observations from a re-analysis of the deposited data

How the results depend on the processing

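The log2 fold changes of single members were above 0 in 85 of 85 values over 13 alternative settings, and 3 of the 85 moved by more than the spread between replicates, *Tgtp1* without OsxCre library 2 and *Tgtp2* and *Iigp1* without OsxCre library 3. The members' median was 2.08 when *Tgtp1* and *Tgtp2* were added together, and between 2.43 and 2.69 without one library. The number of calls depended on the setting more than the values did. With library totals 114 genes were downregulated. Without the filter on low counts 250 were upregulated and 178 downregulated, and with DESeq2's Wald test 304 and 235. DESeq2 called 7 members, *Irgm2* included. Without one library, between 3 and 6 members, 7 and 67 upregulated genes, 5 and 36 downregulated genes and 0 and 10 of the listed interferon and vacuole genes were called. With the replicate number as a block, 0 members, 0 upregulated genes, 1 downregulated gene and 0 of the listed genes passed. Whether the replicate numbers pair the libraries is not known. Deviations of same-numbered libraries from their genotype's mean correlated at -0.518 to -0.0850 across genes, and 0 of 6 libraries correlated best with its own number. With 3 libraries per genotype such correlations cannot exclude a pairing. The number of listed genes called lower was 0 in each setting run. The depth limits the values of *Tgtp1*, *Tgtp2* and *Gm12250* in OsxCre, which rest on 16, 22 and 27 counts over 3 libraries, and those of the interferon ligands in all libraries. The causes of these differences between settings were not tested.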
